A study of Homo sapiens with 13 samples.

Results

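The regions described here are the genes of the TCF/LEF family themselves: LEF1, TCF7, TCF7L1 and TCF7L2, each taken as its span on hg19 with 25 kb added on both sides. The values below describe where LEF1 and TCF7L2 gave peaks at the genes of their own family. All peaks of the 12 deposited lists that overlapped these 4 loci were members, which gave 1721 of 3429979 peaks: 658 at LEF1, 170 at TCF7, 310 at TCF7L1 and 583 at TCF7L2. The lists came from CUT&RUN, in which an antibody bound in permeable cells recruits a nuclease that cuts out nearby DNA for sequencing. The cells were Nalm6, a long-established line of human B-lineage leukaemia, grown in medium with charcoal-stripped serum, which lowers the steroids that serum carries. An antibody against LEF1 or against TCF7L2 was used on cells exposed for 24 h to 5 µM of the glucocorticoid drug prednisolone and on control cells, which the labels list without treatment in one field and with vehicle in another. Each of the 4 groups had 3 libraries from independent experiments of this single line. The IgG sample was not analysed here, so peaks of a nonspecific antibody could not be set beside the members. Gene expression was not measured in these files, so the identity of the cells and the activity of the 4 genes could not be checked.

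TCF/LEF proteins bind DNA through a high-mobility-group domain. In the absence of a Wnt signal they work with TLE corepressors, and when beta-catenin accumulates they recruit it to the same sites and activate their targets. LEF1 and TCF7 (the gene of TCF-1) are best known from lymphocyte development, TCF7L2 from the intestine and metabolic tissues, and TCF7L1 mostly as a repressor in stem cells. LEF1 and TCF7 are textbook targets of the pathway they serve.

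The promoters that bear on the loci were read from RefSeq (GRCh38.p14). They are shown because the peaks near these starts are described below: LEF1-AS1 is the antisense gene that neighbours the 5′ end of LEF1, where the strongest peaks lay, LEF1 is a start listed inside that gene, TCF7L2 is the gene whose recurrent peaks lay inside it, and TCF7L1 is the gene without a LEF1 peak among the strongest. Each line holds the 250 bases before a RefSeq start, 5′ to 3′ on the strand of the gene, with CG dinucleotides in capitals.
LEF1-AS1: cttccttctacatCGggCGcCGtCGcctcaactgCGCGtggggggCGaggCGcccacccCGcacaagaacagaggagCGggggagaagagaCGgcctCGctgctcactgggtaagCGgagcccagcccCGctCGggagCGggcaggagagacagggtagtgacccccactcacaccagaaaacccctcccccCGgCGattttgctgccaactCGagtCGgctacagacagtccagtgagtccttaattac
LEF1: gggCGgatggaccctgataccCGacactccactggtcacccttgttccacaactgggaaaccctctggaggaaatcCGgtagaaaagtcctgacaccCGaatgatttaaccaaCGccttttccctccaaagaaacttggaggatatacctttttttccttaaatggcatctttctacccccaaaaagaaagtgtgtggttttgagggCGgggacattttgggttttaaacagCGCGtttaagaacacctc
TCF7L2: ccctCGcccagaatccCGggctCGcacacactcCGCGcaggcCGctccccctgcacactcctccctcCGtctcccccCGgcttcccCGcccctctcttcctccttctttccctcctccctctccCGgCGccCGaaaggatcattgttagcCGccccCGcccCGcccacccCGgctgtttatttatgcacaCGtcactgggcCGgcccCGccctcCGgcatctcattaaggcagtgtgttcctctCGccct
TCF7L1: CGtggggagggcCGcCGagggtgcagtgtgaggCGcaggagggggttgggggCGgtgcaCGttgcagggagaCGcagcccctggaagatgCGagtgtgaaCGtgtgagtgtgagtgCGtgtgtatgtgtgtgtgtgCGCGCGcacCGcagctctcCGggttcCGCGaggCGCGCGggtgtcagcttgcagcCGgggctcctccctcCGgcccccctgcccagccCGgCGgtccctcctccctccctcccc
On GRCh38.p14 they lie on chromosome 4 from 108171870 to 108172119 on the plus strand, on chromosome 4 from 108166302 to 108166551 on the minus strand, on chromosome 10 from 112949997 to 112950246 on the plus strand, and on chromosome 2 from 85133142 to 85133391 on the plus strand. All other coordinates below are on hg19. In GRCh38 the LEF1-AS1 start lies at −3.19 kb from the LEF1 gene's 5′ end (negative is upstream) and the LEF1 start shown lies 2.63 kb inside the gene, and both distances can be set beside the hg19 peaks because the LEF1 span has nearly the same length in both (121 and 121.385 kb). The LEF1-AS1, TCF7L2 and TCF7L1 stretches held 20, 21 and 24 CG dinucleotides, above the median of 11 over 35116 RefSeq promoters, and the LEF1 stretch held 8. The TCF/LEF motif, searched as CTTTGAA or CTTTGAT on both strands, was in none of the 8 RefSeq promoters listed for the 4 genes and LEF1-AS1 (from 250 bases before to 50 after each start), while 6.86% of all promoters held it. The full palindromic motif of the glucocorticoid receptor was also in none of the 8, and 1 of the 35116 promoters held it. Such a search says only which letters are in these windows.

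Since the lists differed in length from 128863 to 395786 peaks, each was restricted to its 20000 strongest peaks by −log10 p-value, called top peaks. The 4 loci held 208 of the 240000 top peaks. The fold, p and q of a peak are the authors' values from MACS2 and serve to rank peaks within a list. At the limit the −log10 q-value was 5.49 to 6.62 in the LEF1 lists and 0.390 to 0.996 in the TCF7L2 lists, so TCF7L2 top peaks reach down to weaker calls. Top peaks of all 12 lists that overlapped were merged into sites, and the loci held 60 of the 94420 sites of the genome. Of these 60, 29 had a LEF1 top peak, 49 had a TCF7L2 top peak and 18 had both. A single library supplied 30 of the 60, and these are given only as counts. The libraries of each antibody also fell into sets by the length of their shortest peak: set A held control 1 and prednisolone 2 and 3, and set B held control 2 and 3 and prednisolone 1.

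The strongest peak of the family lay upstream of the 5′ end of LEF1 or across it, and both antibodies gave it in every library. It lay wholly upstream in LEF1 control 3, TCF7L2 control 3 and all TCF7L2 prednisolone libraries. The merged site reached over that end and is called the LEF1 5′ end below. The site ran on chromosome 4 from 109088939 to 109096686, from 1.06 kb inside the gene to the region upstream of it. For LEF1 it was the peak of rank 429, 333 and 327 in control cells and 101, 993 and 522 after prednisolone. For TCF7L2 it was the peak of rank 56, 176 and 138 in control cells and 129, 83 and 70 after prednisolone. Its lowest place in any of the 12 lists was 993, and control and prednisolone overlapped for both antibodies. The deposited folds were 12.5, 13.0 and 12.8 (control) and 18.6, 6.90 and 8.92 (prednisolone) for LEF1, and 38.2, 16.1 and 34.6 (control) and 32.4, 32.3 and 27.0 (prednisolone) for TCF7L2. LEF1 peaks here were broad, 5.82 to 6.28 kb in 5 libraries and 1.80 kb in control 3, and TCF7L2 peaks measured 3.67 to 7.15 kb. Taking distances upstream as negative, the summits lay at −4.65 to −4.39 kb in 5 of 6 LEF1 libraries and at −4.65 to −4.40 kb in all 6 TCF7L2 libraries. The exception was LEF1 prednisolone 2, with a summit at −2.78 kb. The start of LEF1-AS1, at −3.19 kb, falls within the distances covered by the site.

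Further sites recurred along LEF1. The one 24.0 to 29.1 kb inside the gene (chromosome 4 from 109060948 to 109066001) also had a top peak in all 12 libraries. Its ranks were 2174, 5109 and 1887 in LEF1 control, 2956, 9181 and 2934 in LEF1 prednisolone, 2315, 939 and 1309 in TCF7L2 control and 4648, 774 and 1593 in TCF7L2 prednisolone. The site 4.54 to 10.1 kb inside the gene (109079900 to 109085465) had a top peak in 6 LEF1 and 5 TCF7L2 libraries, missing TCF7L2 prednisolone 3. The site 132 to 134 kb from the 5′ end (108955790 to 108958189), past the 3′ end of the gene, had the same pattern. The site 46.0 to 48.4 kb inside (109041623 to 109043966) belonged mainly to LEF1: ranks were 6538, 6769 and 6003 in LEF1 control and 9767, 13164 and 11153 in LEF1 prednisolone, and 1 of 6 TCF7L2 libraries had a top peak there. The site 1.19 to 3.88 kb inside (109086119 to 109088811), which spans the distance of the LEF1 start printed above, belonged mainly to TCF7L2: ranks were 3825, 7499 and 4729 in control and 1026, 8423 and 2380 after prednisolone, while 3 of 6 LEF1 libraries had a top peak, the best at rank 9178.

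**Figure D1:**
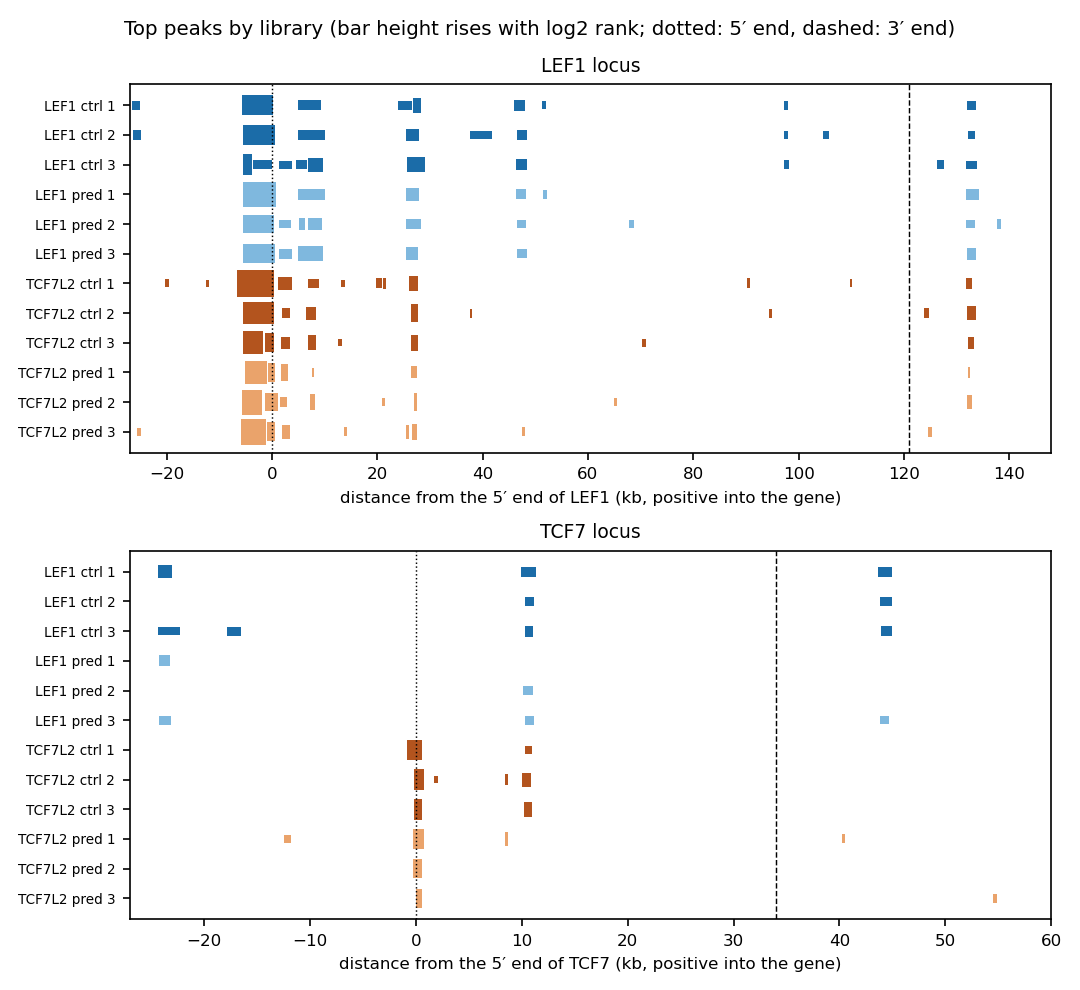
Top peaks of each library along the LEF1 and TCF7 loci, with the distance from the 5′ end of the gene in kb on the x axis and the 12 libraries on the y axis; bar width is the peak and bar height rises with its rank. At LEF1 the bars across or upstream of the 5′ end and those about 27 kb inside stand in all 12 libraries. At TCF7 the bar at the 5′ end stands in the 6 TCF7L2 libraries and in none of the LEF1 libraries.

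At the 5′ end of TCF7 only the TCF7L2 antibody gave top peaks, while a site further inside the gene had top peaks of both antibodies in control cells. The TCF7L2 antibody gave a peak over the 5′ end (chromosome 5 from 133449210 to 133450749) in every library, at rank 454, 336 and 310 in control cells and 328, 548 and 538 after prednisolone. No LEF1 library had a top peak there, though each had a weaker peak. The LEF1 peaks at the site ranked 112179, 107831 and 47131 in control cells and 168867, 108986 and 30798 after prednisolone. Their folds were 2.08 to 2.95 and their −log10 q-values 0.697 to 3.44. In control 1, control 3 and prednisolone 3 these q-values (1.38, 2.97 and 3.44) exceeded those at the limit of the TCF7L2 lists (0.390 to 0.996). The TCF7L2 folds were 6.59, 13.1 and 15.9 (control) and 13.9, 5.42 and 5.23 (prednisolone), and the groups overlapped. The TCF7L2 summit was the same base, position 133450351, in all 6 libraries. An identical summit in all 6 was found at 4 of the 1803 sites with a top peak in every TCF7L2 library, where the median spread was 213 bp. No RefSeq promoter is printed for TCF7, since the gene's length differs between the sources (34 kb on hg19, 39.993 kb in GRCh38) and the 5′ ends cannot be taken as the same.

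LEF1 top peaks at TCF7 lay away from the 5′ end. They were inside the gene, 9.96 to 11.3 kb from its 5′ end (133459962 to 133461314), at ranks 8853, 12098 and 6419 in control cells and 12190 and 12482 in prednisolone 2 and 3, with prednisolone 1 at rank 38881. For the TCF7L2 antibody this site had top peaks in all control libraries, at ranks 19164, 2623 and 1828, and after prednisolone the site had a peak of rank 138391 in replicate 1 and none in replicates 2 and 3. A further LEF1 site lay past the 3′ end, 43.6 to 45.0 kb from the 5′ end (133493645 to 133494990): ranks were 10207, 12321 and 10583 in control cells and 24007, 30941 and 18767 after prednisolone. Every control library ranked this site above every prednisolone library, which is given without its share over the genome, and nothing is drawn from it. The site upstream of the gene, at −24.3 to −22.3 kb (133425698 to 133427746), had a LEF1 top peak in 2 control and 2 prednisolone libraries, the best at rank 3842, and no TCF7L2 top peak.

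At TCF7L2 the recurrent sites lay inside the gene and not at its 5′ end. LEF1 marked 4 of them in all 6 libraries, all within the gene span: 34.5 to 36.9 kb, 55.2 to 58.4 kb, 76.6 to 78.5 kb and 99.4 to 102 kb from the 5′ end. The strongest was the site 55.2 to 58.4 kb inside (chromosome 10 from 114765172 to 114768413), where LEF1 ranked 1126, 3259 and 1980 in control cells and 1445, 1794 and 799 after prednisolone. The TCF7L2 antibody also gave a top peak at this site in control cells, at ranks 3145, 998 and 3245, whereas after prednisolone the peaks ranked 105797, 76213 and 11843. The LEF1 groups overlapped there and the TCF7L2 groups did not. At the site 76.6 to 78.5 kb inside (114786627 to 114788461) LEF1 ranked 3098, 2955 and 2336 in control cells and 4544, 10602 and 2983 after prednisolone, and TCF7L2 had top peaks in control 1 and 3 (ranks 3219 and 2672) and in no prednisolone library. At the site 143 to 145 kb inside (114852732 to 114854985) LEF1 ranked 8662, 13210 and 12178 in control cells and 19678, 43627 and 29888 after prednisolone, so that the LEF1 groups did not overlap. As at TCF7, groups that do not overlap are described without their share over the genome, and nothing is drawn from them. Near the 5′ end, the site from −1.14 to 0.838 kb (114708859 to 114710838) had top peaks in LEF1 prednisolone 2 and 3 and TCF7L2 prednisolone 1 and in no control library, none of them better than rank 9692. The TCF7L2 antibody ranked its own gene's site 1.25 to 2.24 kb inside (114711248 to 114712237) at 2958 and 4113 in control 2 and 3 and at 3857 in prednisolone 1.

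TCF7L1, the fourth gene, had no LEF1 top peak in any of the 6 libraries. The best LEF1 peak in the locus ranked between 20204 and 69237. The former, in prednisolone 1, was just outside the limit. In prednisolone 1 and 3 and control 3 the best peak had its summit 153 kb from the 5′ end. Its −log10 q there was 6.60, 1.99 and 2.87. In the remaining LEF1 libraries the best peak lay elsewhere in the locus. Empty windows were common for this antibody: of the windows of the same length, 227 kb, tiled over the genome and holding any peak of the full lists, 37.3% in control and 39.2% in prednisolone held no LEF1 top peak in any of the 3 libraries. The TCF7L2 antibody had 6 sites in the locus, of which 4 came from 1 library each, at −log10 q of 0.390 to 1.23. The limit of top peaks lay lower in q for this antibody than for LEF1. The recurrent one lay past the 3′ end, 193 to 195 kb from the 5′ end (chromosome 2 from 85553929 to 85556430), at ranks 1849 and 3372 in control 1 and 3 and 12845, 1602 and 4713 after prednisolone. In control 2 the peak there ranked 39031. The site lies in the flank added to the gene, and without hg19 annotation it could not be assigned to TCF7L1 or to a neighbouring gene.

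**Figure D2:**
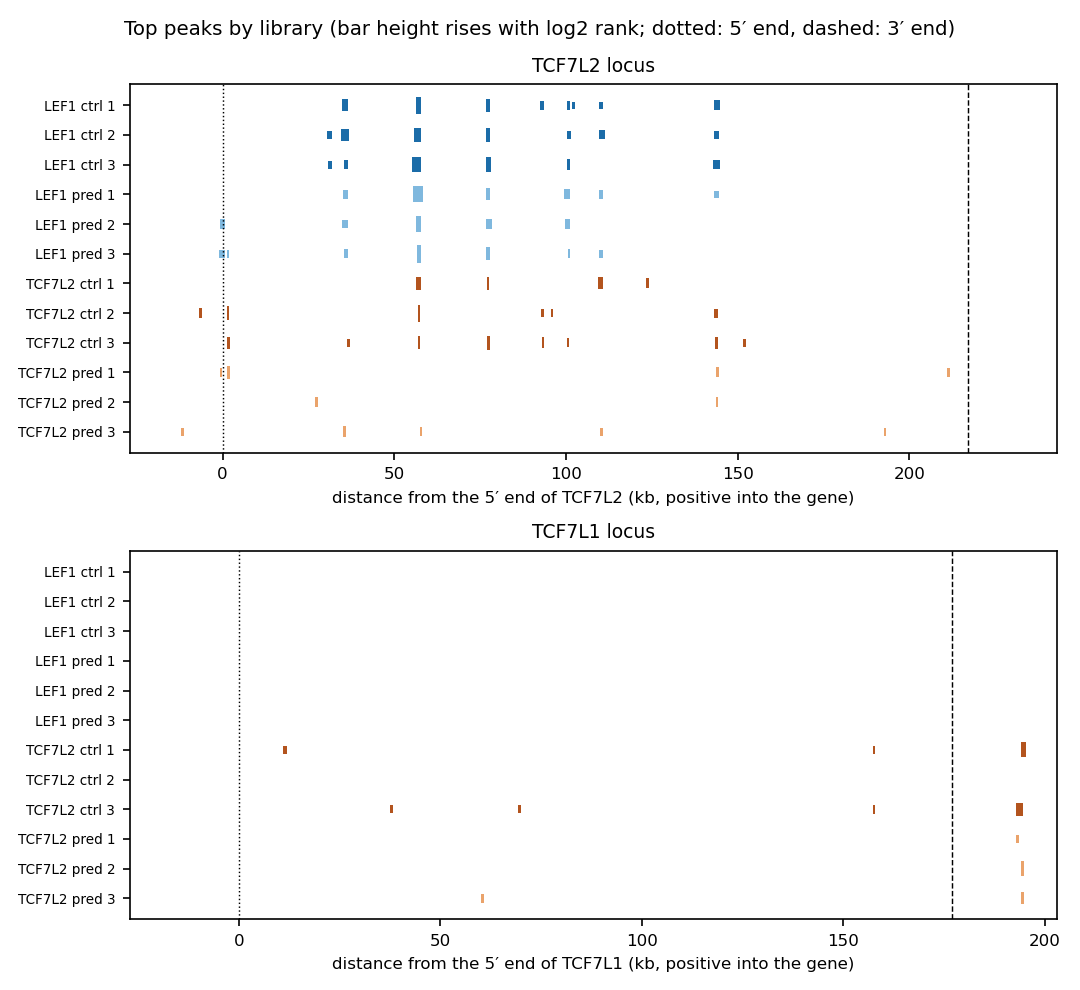
Top peaks of each library along the TCF7L2 and TCF7L1 loci, drawn on the same axes (distance from the 5′ end in kb, 12 libraries). LEF1 bars recur inside TCF7L2 at about 36, 57, 77 and 101 kb in all 6 libraries, TCF7L2 bars at about 57 kb stand in 3 control libraries and 1 prednisolone library, and TCF7L1 has no LEF1 bar.

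The loci differed in how densely top peaks lay in them. With the LEF1 antibody in control cells the density of top peaks, as a ratio to that of the whole list, was 8.45 ± 0.52 at LEF1, 5.53 ± 1.84 at TCF7, 4.06 ± 0.58 at TCF7L2 and 0 at TCF7L1 (mean ± SD, n = 3). The libraries at LEF1 (8.14 to 9.05) stood above those at the other loci, while those at TCF7 (3.68 to 7.37) and TCF7L2 (3.48 to 4.64) overlapped. In TCF7L2 control libraries the ratios were 8.45 ± 2.09, 4.91 ± 2.13, 3.48 ± 1.16 and 1.59 ± 1.42 in the same order of genes. After prednisolone they were 6.33 ± 1.57, 3.07 ± 2.13, 3.48 ± 0.58 and 0 for LEF1, and 6.94 ± 1.38, 4.30 ± 2.81, 2.12 ± 0.89 and 0.909 ± 0.394 for TCF7L2. Among windows of the length of the LEF1 locus (171 kb), 0.918% held at least as many LEF1 top peaks in control cells and 0.528% at least as many TCF7L2 top peaks, with 1.91% and 0.754% after prednisolone. For the TCF7 locus these shares were 5.39% and 4.91% in control cells and 14.1% and 4.18% after prednisolone. For the TCF7L2 locus they were 5.56% and 6.17%, and 7.84% and 13.9%. The shares describe where the loci stand among windows and are no test. On the full lists the ratios lay closer together. Over the 6 libraries of the LEF1 antibody they were 5.10 at LEF1, 1.90 at TCF7, 2.39 at TCF7L2 and 0.788 at TCF7L1, where the top peaks gave 7.39, 4.30, 3.77 and 0. For the TCF7L2 antibody they were 2.44, 1.83, 1.74 and 1.62, where the top peaks gave 7.69, 4.61, 2.80 and 1.25. LEF1 stood first with both antibodies on either list, but in the gene spans alone TCF7 (9.102) stood above LEF1 (7.89) for the TCF7L2 antibody. The order of TCF7 and TCF7L2 turned for the LEF1 antibody on full lists.

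**Figure D3:**
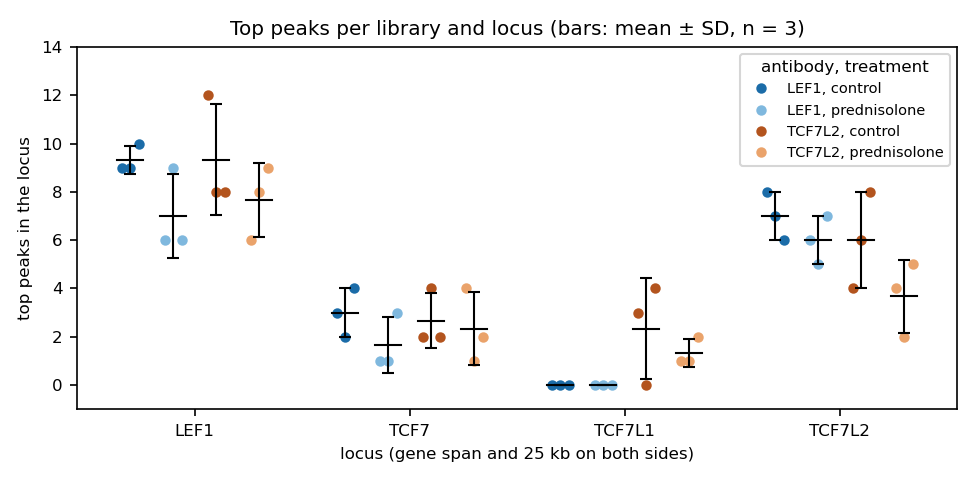
Number of top peaks at each of the 4 loci (y axis) by antibody and treatment (x axis and colour); points are libraries, lines and bars the mean ± SD of 3. The LEF1 locus holds 6 to 12 in every library, and the 6 LEF1 libraries sit at 0 at TCF7L1.

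The number of top peaks was compared between treatments at each locus with an exact permutation test, two-sided, which cannot go below p = 0.1 with 3 libraries against 3. At LEF1 the LEF1 antibody had 9, 9 and 10 top peaks in control cells and 6, 9 and 6 after prednisolone, a difference of −2.33 (exact permutation test, p = 0.3). At TCF7 it had 3, 2 and 4 against 1, 1 and 3 (difference −1.33, exact permutation test, p = 0.3), and at TCF7L2 8, 7 and 6 against 6, 5 and 7 (difference −1, exact permutation test, p = 0.5). For the TCF7L2 antibody the counts were 12, 8 and 8 against 6, 8 and 9 at LEF1 (difference −1.67, exact permutation test, p = 0.6) and 4, 6 and 8 against 4, 2 and 5 at TCF7L2 (difference −2.33, exact permutation test, p = 0.3). At TCF7 and TCF7L1 the differences for this antibody were −0.33 and −1 (exact permutation test, p = 1 and p = 0.6). The groups overlapped or met at every locus, and no number was shown to differ between treatments. Some differences rested on 1 library or on the setting. For the TCF7L2 antibody at LEF1 the difference was −0.333 without control 1 and −0.833 without prednisolone 1 (exact permutation test, p = 1 for both). For this antibody at TCF7L2 it was −1.33 without control 3, −1.5 without prednisolone 2 and −1 with equal peaks ordered by position (exact permutation test, p = 0.5, 0.5 and 0.7). For the LEF1 antibody at TCF7 it was −0.833 without control 3, and at TCF7L2 −0.5 without control 1 or prednisolone 2 (exact permutation test, p = 0.6, 0.7 and 0.7). With the 5000 strongest peaks the difference at LEF1 was 0.667 for both antibodies (exact permutation test, p = 0.7). With the LEF1 antibody at TCF7L1, at 0 throughout, and those between antibodies below, 12 comparisons of top peak numbers were made, and their p-values are not adjusted. Within sets A and B the LEF1 antibody's difference at LEF1 was −1.5 and −3.5 and the TCF7L2 antibody's difference at TCF7L2 was −0.5 and −3.

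Sites present in 1 treatment were few. A site was called lost when all 3 control libraries and no prednisolone library had a top peak, and gained in the opposite case. At the 4 loci LEF1 lost 1 site and gained 0, where 1.92% of the 36840 sites with a LEF1 top peak were lost and 2.84% gained over the genome. The lost site lay 97.3 to 98.3 kb inside LEF1 (chromosome 4 from 108991736 to 108992735), with ranks of 13770, 15948 and 10411 in control cells and 42207, 27820 and 30931 after prednisolone, so a weaker peak was still there in every prednisolone library. TCF7L2 lost 1 site and gained 0, where 1.25% of 76280 sites were lost and 0.366% gained. This was the site 9.96 to 11.3 kb inside TCF7 described above. With the 5000 strongest peaks LEF1 lost 0 of 8 sites (3.09% over the genome). On full lists LEF1 lost 0 of 53 sites (0.512%) and TCF7L2 lost 4 of 60 (2.44%). When absence from the full lists was asked, neither antibody lost a site (0.00814% and 0.156%). For the 29 and 49 sites with a top peak the first counts are near the background share and say nothing particular about the family.

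The rank of each site was compared on a log2 scale, as the rank score: the log2 of the number of top peaks plus 1, divided by the rank of the site's best peak, and 0 without a top peak. Between libraries that both have a top peak, each unit is a doubling or halving of the rank. Any rank beyond 20000 scores 0, so a difference that involves such a library understates the change in rank: this holds for LEF1 at the TCF7 5′ end and for TCF7L2 prednisolone 1 and 2 at the site 55.2 to 58.4 kb inside TCF7L2. limma was fitted to all sites with a top peak in at least 3 of the 6 libraries of an antibody, and p-values were adjusted by Benjamini-Hochberg over these. At the loci 17 of 29 LEF1 sites and 12 of 49 TCF7L2 sites were tested. None of the 17 passed an adjusted p of 0.05 between treatments, against 3.51% of 19665 sites over the genome (2.1% nearer the top after prednisolone and 1.41% further down). None of the 12 passed either, against 1.27% of 10048 (0.955% nearer the top and 0.318% further down). At an unadjusted p under 0.05 there were 3 of 17 and 2 of 12, where the genome had 23.7% and 19.1%. With the log2 of the fold in place of the rank, a library without a top peak took the lowest fold among its list's top peaks, whatever its deposited fold. On this scale limma called 1 site for each antibody: the lost LEF1 site inside LEF1 (adjusted p = 0.00534) and, for TCF7L2, the site inside TCF7 (adjusted p = 0.0261). Every prednisolone library took that lowest fold there, and both sites passed the filter through control libraries alone, so these calls are not read as support. The deposited folds at the LEF1 site were 7.07, 6.83 and 7.84 in control cells and 4.18, 4.66 and 4.26 after prednisolone. Over the genome the same fit called 1966 of 19665 sites (10%; 4.03% lower after prednisolone) for LEF1 and 1280 of 10048 sites (12.7%; 9.85% lower) for TCF7L2, so 1 of 17 and 1 of 12 are near the background. The median difference was −0.52 over the 17 LEF1 sites and −0.34 over the 12 TCF7L2 sites, beside −0.04 and −0.33 over all sites tested.

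The site with the largest TCF7L2 difference at the loci was the one 55.2 to 58.4 kb inside the TCF7L2 gene. Its rank score for the TCF7L2 antibody was 3.21 ± 0.97 under control conditions and 0.25 ± 0.44 with prednisolone (mean ± SD, n = 3), a difference of −2.95 with a standard error of 0.86 (limma, adjusted p = 0.116, and 0.064 to 0.507 over its 12 alternatives). Each prednisolone library lay below each control library, which is given without its share over the genome and not read as support. Within sets A and B the difference was −2.29 and −3.47. For LEF1 the score at this site was 3.37 ± 0.77 and 3.97 ± 0.60, a difference of 0.60 ± 0.66 (SE; limma, adjusted p = 0.607). The difference between both treatment effects was −3.56 (limma interaction term, adjusted p = 0.0727), so the effects were not shown to differ. No site of the 23 tested at the loci passed that test, against 0.758% over the genome (0.413% positive and 0.345% negative). It had 3 of 23 at an unadjusted p under 0.05, and 14.96% over the genome. At the site inside TCF7 the TCF7L2 score was 2.15 ± 1.83 in control cells and 0 after prednisolone (limma, difference −2.15, SE 0.97, adjusted p = 0.256). The within-set values there were −0.06 and −3.19: control 1, the only control library of set A, ranked the site near the limit. At the 5′ ends the treatment differences were small against their errors: −0.05 ± 0.79 (SE) for LEF1 and 0.29 ± 0.39 for TCF7L2 at LEF1, and −0.34 ± 0.40 for TCF7L2 at TCF7 (limma, adjusted p = 0.975, 0.722 and 0.675). For LEF1 at the LEF1 5′ end the sets differed in sign, with −0.75 in set A and 1.71 in set B.

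**Figure D4:**
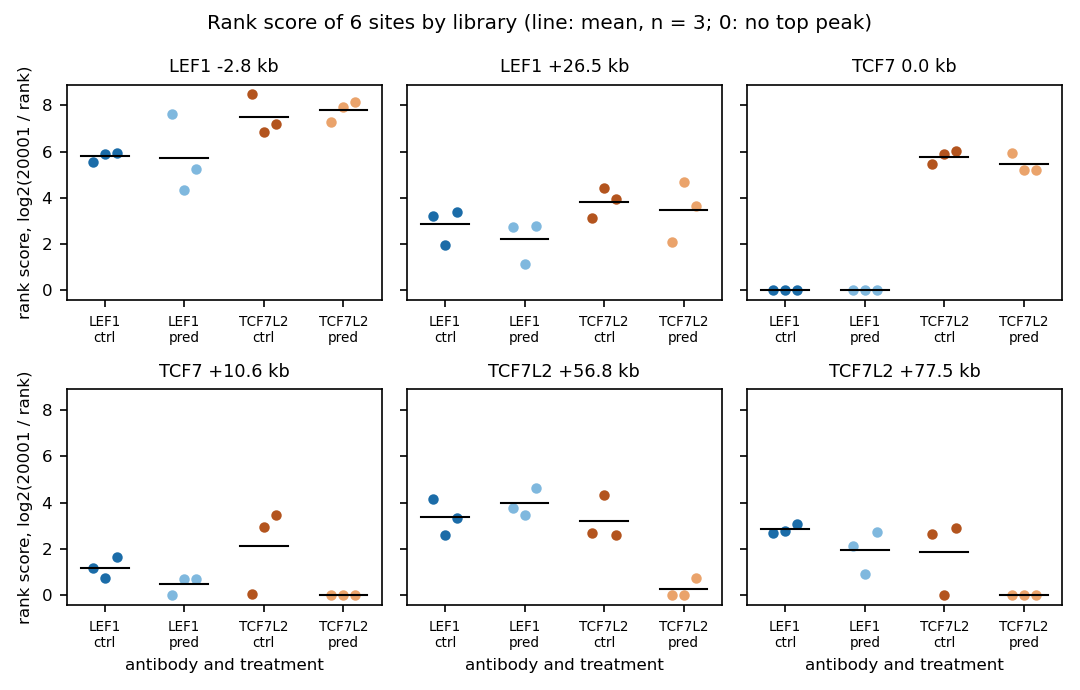
Rank score (y axis; log2 scale, 0 without a top peak) of 6 sites by antibody and treatment (x axis); points are libraries and lines the mean of 3. At TCF7L2 +56.8 kb the 3 TCF7L2 control libraries lie above the 3 prednisolone libraries. The share of such sites over the genome is not given, and the LEF1 groups overlap there. At the TCF7 5′ end (0.0 kb) all LEF1 libraries are at 0, since their peaks there are not among the top peaks.

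Between the antibodies, 7 of the 23 sites at the loci with a top peak in at least 3 of the 12 libraries passed an adjusted p of 0.05 in a limma fit with treatment as a term, beside 32.5% of 26386 sites over the genome, so the share is near the background. A site is here compared by its place in each antibody's own list. TCF7L2 stood nearer the top at 4 of them, a direction called at 9.49% of the genome's sites. At the TCF7 5′ end the difference was 5.62 ± 0.34 (SE; adjusted p = 5.3e-10), at the LEF1 5′ end 1.87 ± 0.48 (adjusted p = 0.00671), at the site 1.19 to 3.88 kb inside LEF1 2.08 ± 0.47 (adjusted p = 0.00279) and past the 3′ end of TCF7L1 2.06 ± 0.56 (adjusted p = 0.0102). Every LEF1 library scored 0 at the TCF7 5′ end and past TCF7L1, so these sites passed the filter through TCF7L2 libraries alone. Their direction was fixed by that filter, and their errors and p-values are not read as support. LEF1 stood nearer the top at 3, a direction called at 23% of the genome's sites: the site 46.0 to 48.4 kb inside LEF1 (−1.11 ± 0.35, adjusted p = 0.0218) and, inside TCF7L2, the sites at 55.2 to 58.4 kb (−1.94 ± 0.61, adjusted p = 0.0225) and 76.6 to 78.5 kb (−1.47 ± 0.50, adjusted p = 0.0345). At 46.0 to 48.4 kb inside LEF1 and 76.6 to 78.5 kb inside TCF7L2, only 1 and 2 TCF7L2 libraries had a top peak. Both sites thus met the filter only through LEF1 libraries, and their errors and p-values are not read as support either. The fit between antibodies averages over treatments. At 55.2 to 58.4 kb the mean scores of LEF1 and TCF7L2 were close in control cells (3.37 and 3.21) and apart after prednisolone (3.97 and 0.25). At 76.6 to 78.5 kb they were 2.85 and 1.85 in control cells and 1.93 and 0 after prednisolone. The call at 46.0 to 48.4 kb inside LEF1 ended with the replicate number as a block (limma, adjusted p = 0.0706). With the 5000 strongest peaks this site had too few top peaks to be tested, and 2 of the 10 sites tested at the loci were called (limma), the 5′ ends of TCF7 and LEF1, beside 42.6% of 8270 sites over the genome. The call at 55.2 to 58.4 kb ended without LEF1 prednisolone 3 (limma, adjusted p = 0.0547) or TCF7L2 prednisolone 1 (0.0516), with the 5000 strongest peaks (0.0563) and when all sites with any top peak were tested (0.124). That at 76.6 to 78.5 kb ended with the same 2 settings (limma, adjusted p = 0.281 and 0.144) and without any of 7 libraries: LEF1 control 3, LEF1 prednisolone 1 or 3, TCF7L2 control 2 or any TCF7L2 prednisolone library (adjusted p = 0.0531 to 0.0768). The 5′ end of TCF7 kept its call under each alternative run, with a difference of 3.62 to 5.69 in rank score and 2.94 in log2 fold. For the latter each LEF1 library took the lowest fold among its top peaks, in place of deposited folds of 2.08 to 2.95. The 2.94 is therefore not the difference between the deposited folds. With the 5000 strongest peaks the calls 1.19 to 3.88 kb inside LEF1 (limma, adjusted p = 0.107) and past TCF7L1 (0.0931) ended, the former also with log2 fold (0.233). In top peak numbers, TCF7L2 exceeded LEF1 at TCF7L1 by 1.83 (exact permutation test within treatment, p = 0.02 unadjusted), with 5 of 6 TCF7L2 libraries above 0. With the replicate number as a block p was 0.0625 (exact permutation test). That is the lowest value these counts could give, since control 2 held 0 for both antibodies, so the block could not keep the call. Leaving out any LEF1 control library brought the comparison to p = 0.05 (exact permutation test). The difference was 0.667 with the 5000 strongest peaks, 1 in the gene span alone and −1 among all peaks whose −log10 q reached 2 (exact permutation test, p = 0.08, 0.2 and 0.21). At LEF1, TCF7 and TCF7L2 the differences were 0.333, 0.167 and −1.67 (exact permutation test within treatment, p = 0.835, 1 and 0.115). At LEF1 and TCF7 the direction turned with the setting, and none is drawn. At LEF1 it was 2 with the 5000 strongest peaks (exact permutation test, p = 0.02), but −26.3 on full lists, −21 and −6.17 among peaks whose −log10 q reached 2 and 5, and −7.93 in kb covered (exact permutation test, p = 0.005 for each). At TCF7 it was 1.33 with 5000 peaks and 1.17 in the gene span alone, but −3.5 and −1.67 among peaks whose −log10 q reached 2 and 5 (exact permutation test, p = 0.01, 0.03, 0.01 and 0.01). At TCF7L2 it was −13.8 and −7.83 by the same limits of q, −6.51 in kb covered, −2.17 in the gene span alone and −2.17 without TCF7L2 control 3 (exact permutation test, p = 0.005, 0.005, 0.005, 0.045 and 0.03), and −0.667 with 5000 peaks (exact permutation test, p = 0.24).

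**Figure D5:**
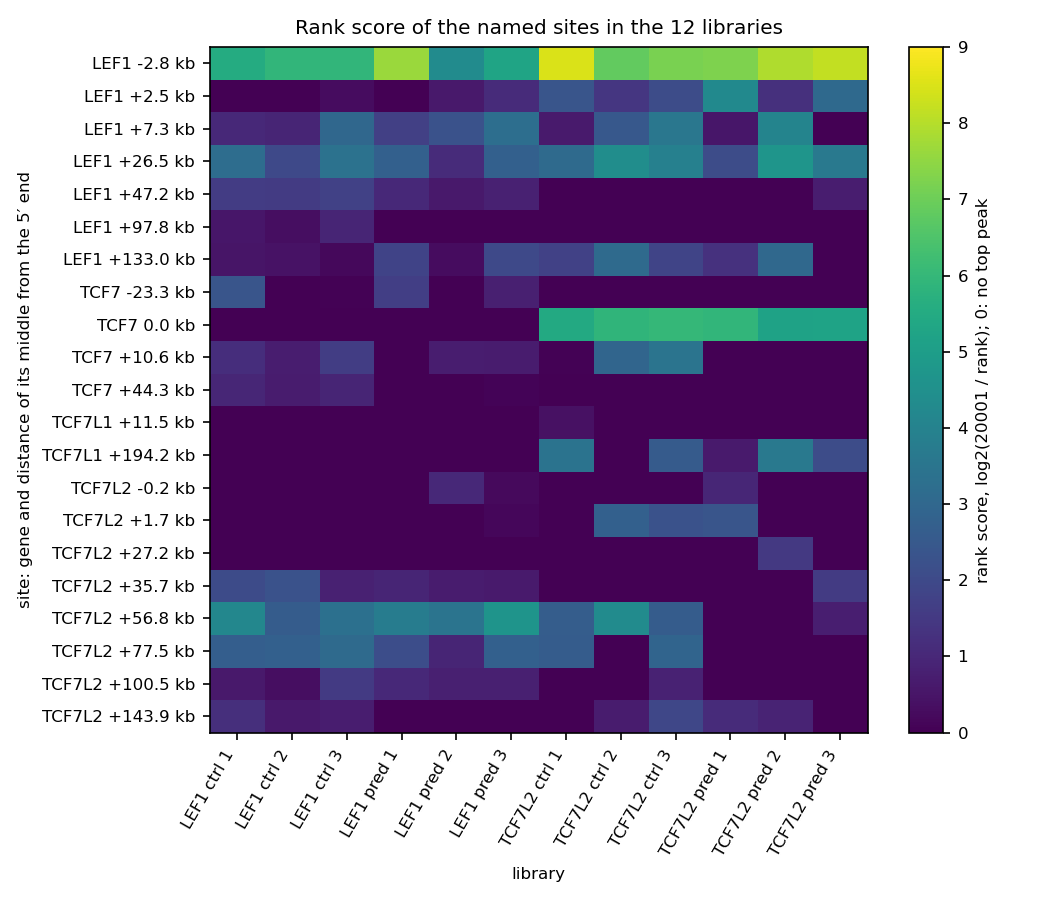
Rank score of the 21 named sites (rows, by gene and distance of the site's middle from the 5′ end in kb) in the 12 libraries (columns); brighter is nearer the top of the list and 0 is no top peak. The LEF1 5′ end (row −2.8 kb) is bright in all 12 columns and the TCF7 5′ end only in the 6 TCF7L2 columns.

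Sites shared by both antibodies were counted among consensus sites, those with a top peak in every library of a group. In control cells 6 of the 13 LEF1 consensus sites at the loci, or 46.2% (exact 95% Clopper-Pearson interval 19.2% to 74.9%), were also TCF7L2 consensus sites, beside 22.5% over the genome. Seen from TCF7L2 this was 6 of 8, or 75%, beside 48.3%. After prednisolone it was 2 of 9 LEF1 sites, or 22.2% (2.81% to 60.01%), beside 11.6%, and 2 of 5 TCF7L2 sites, or 40%, beside 46.2%. The intervals cover counting error only and include the genome's shares. The shares moved with the limit. Among all peaks whose −log10 q reached 5, they were 2 of 15 LEF1 sites, or 13.3%, in control cells (3.9% over the genome) and 1 of 11, or 9.09%, after prednisolone (1.93%). With the 5000 strongest peaks they were 2 of 3 in control cells (17.9% over the genome) and 1 of 2 after prednisolone (12.7%). After prednisolone the share was also 44.4% without TCF7L2 prednisolone 3 (17.3% over the genome) and 35.7% with a top peak asked in 2 of 3 libraries (21%). At the 8 sites with a top peak in at least 3 libraries of each antibody, the median summits of the antibodies lay 33 to 434.5 bp apart (median 128 bp), where the median over 5880 such sites of the genome was 85.5 bp. The smallest gap was that of the LEF1 5′ end.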

How the data were processed

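CUT&RUN peak lists of 12 libraries (4 groups of 3) were used. Per the submitters' processing notes, the authors called peaks with MACS2 on hg19, one list per library as the peak names show; the MACS2 version, aligner, control library and duplicate handling are not given in the sources used here. The deposited lists give each peak a fold ratio and a −log10 p-value and −log10 q-value, ending at a −log10 p-value of 1.30. Read depth is unknown. Gene spans came from the rule that defines the loci, rounded to 1 kb, and no hg19 annotation or sequence was used, so exons and introns are not named and a planned list of other Wnt genes and motif searches in peaks were not run.

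Lists were restricted to 20000 peaks, with peaks equal in p and fold taken in seeded random order. In 3 TCF7L2 libraries (control 2, prednisolone 1 and 3) such peaks filled 1659, 2231 and 7599 places. Top peaks overlapping by 1 bp were merged into sites. Tests were exact permutation tests (Python 3.11.15, numpy 2.4.6) and limma 3.58.1 with a variance trend (R 4.3.3), the latter checked on simulated data. The fits between antibodies and of the interaction were added after the data were seen. Named sites were those with a top peak in all 3 libraries of a group (at most 8 per locus, by median rank), the site nearest each 5′ end, gained, lost or called sites, and those at the strongest peak of each library. The loci, lists and rules were chosen with earlier results of these data known. No pair of lists shared over 0.0737% of its intervals. Alternatives were list length, q-value, flank, overlap, bases covered, order of equal peaks, site merging, the fold as scale, leaving out each library, a replicate block and the sets by shortest peak. On the fold scale a library without a top peak at a site took the lowest fold among its list's top peaks.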

Additional observations from a re-analysis of the deposited data

How the results depend on the processing

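Of 979 alternative values, most kept direction and call. No alternative gave a treatment call at the loci except the log2 fold (1 site per antibody). Within an antibody, replicate numbers did not visibly pair control with prednisolone libraries. Deviations of the rank score from the group mean correlated at −0.182 to −0.0489 between same-numbered libraries. Between control and prednisolone libraries of the same set, A or B, they correlated at 0.0644 to 0.132 over both antibodies. Between libraries of different number and different set the values were −0.0650 to −0.0154. Pairing between the antibodies was not checked. With the replicate block, TCF7L2 exceeded LEF1 at TCF7L1 by 1.83 top peaks (exact permutation test, p = 0.0625, the lowest value these counts could give). The call 46.0 to 48.4 kb inside LEF1 ended (limma, adjusted p = 0.0706) and no other call at the loci changed. Genome calls were 940 (LEF1), 174 (TCF7L2) and 6610 (antibodies). The cause of the changes below was not tested.

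Top peak numbers, prednisolone minus control, became with the 5000 strongest peaks 0.667 for both antibodies at LEF1 and 0 for TCF7L2 at TCF7L1. With −log10 q of at least 2, LEF1 gave 0.333 at TCF7, −1 at TCF7L1 and 0.667 at TCF7L2. With at least 5, LEF1 gave 0.333 at TCF7L1 and TCF7L2 gave 0 at LEF1. Full lists gave LEF1 1 at TCF7 and −0.333 at TCF7L1. Within set B, TCF7L2 gave 1 at TCF7, and leaving out a library gave −1.17 to 0.333.

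TCF7L2 minus LEF1, in the order LEF1, TCF7, TCF7L1 and TCF7L2, was 2, 1.33 and 0.667 for the first 3 with 5000 peaks. It was −21, −3.5, −1 and −13.8 with −log10 q of at least 2, and −6.17, −1.67, 0.167 and −7.83 with at least 5. In gene spans alone it was −0.167, 1.17, 1 and −2.17. In kb covered it was −7.93 at LEF1, −0.972 at TCF7 and −6.51 at TCF7L2. Full lists gave −26.3 at LEF1, equal peaks by position gave 0 at TCF7, and the sets gave −0.75 at LEF1 (B) and −0.75 at TCF7 (A). Leaving out a library gave −0.333 to 0.833, −0.25 to 0.5, 1.42 to 2.42 and −2.17 to −1.17, the last −2.17 without TCF7L2 control 3 (exact permutation test, p = 0.03).

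Sites called between treatments over the genome numbered, for LEF1, 303 with 5000 peaks, 1966 with log2 fold, 60 when testing sites in at least 1 library, and 194 to 856 leaving out a library (253, 285, 242 and 194 without control 2, control 3, prednisolone 2 and prednisolone 3). For TCF7L2 they numbered 1280 with log2 fold, 73 in at least 1 library, 44 with the set as a term, and 18 to 128 leaving out a library (18 and 22 without prednisolone 2 and 3). With log2 fold, 1 site at the loci was called for each antibody (genome 10% and 12.7%). Antibody calls numbered 3520 with 5000 peaks (42.6%; 2 of 10 at the loci) and 16003 with log2 fold (60.6%; 12 of 23 at the loci).

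Some differences in rank score changed sign. With the set as a term, treatment gave 0.48 and −0.17 for LEF1 at the LEF1 5′ end and TCF7 −23.3 kb, and 0.13, −0.61 and −0.086 for TCF7L2 at TCF7L2 +143.9 kb, TCF7L1 +194.2 kb and the LEF1 5′ end. With 5000 peaks TCF7L2 gave −0.092 at TCF7L1 +194.2 kb and 0.0025 at LEF1 +7.3 kb, and with log2 fold −0.015 at LEF1 +2.5 kb. Leaving out a library, LEF1 spanned −0.22 to 0.37 at TCF7L2 +100.5 kb, −0.999 to 0.65 at the LEF1 5′ end and −0.41 to 0.80 at TCF7 −23.3 kb. TCF7L2 spanned −0.63 to 0.34 at TCF7L2 +143.9 kb, −0.88 to 0.86 at TCF7L1 +194.2 kb, −0.94 to 0.35 at LEF1 +26.5 kb, −1.96 to 0.075 at LEF1 +7.3 kb and −0.047 to 0.78 at the LEF1 5′ end. Between antibodies, log2 fold gave −0.60 at TCF7L2 +143.9 kb, −0.76 at LEF1 +133 kb, −0.65 at LEF1 +26.5 kb (limma, adjusted p = 0.0298, opposite to the rank score's 1.11 at adjusted p = 0.0859) and −0.69 at TCF7 +10.6 kb, and 5000 peaks gave 0.26 at LEF1 +7.3 kb. Leaving out a library gave −0.14 to 0.023 at TCF7L2 −0.2 kb, −0.63 to 0.27 at LEF1 +7.3 kb and −0.12 to 0.64 at TCF7 +10.6 kb.

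Lost LEF1 sites numbered 0 with 5000 peaks, with full lists or when absence from full lists was asked (genome 3.09%, 0.512% and 0.00814%). Leaving out a library they numbered 1 to 2: 2 without control 1, prednisolone 1 or prednisolone 3, beside 4.15%, 3.67% and 2.87% over the genome, with 0 to 1 gained (1 without prednisolone 1, genome 6.23%). Lost TCF7L2 sites numbered 4 with full lists (genome 2.44%) and 0 when absence was asked (0.156%). Leaving out a library they numbered 1 to 3: 3 without control 2 (2.66%), 2 without control 1 (3.17%) or prednisolone 3 (1.9%). The control consensus share was 13.3% with −log10 q of at least 5 (genome 3.9%). Density ratios over the 6 libraries of an antibody were, on full lists, 5.10 (LEF1) and 2.44 (TCF7L2) at LEF1, 1.90 and 1.83 at TCF7, 0.788 (LEF1) at TCF7L1 and 2.39 (LEF1) at TCF7L2. On gene spans they were 9.102 (TCF7L2) at TCF7 and 4.63 (LEF1) at TCF7L2. Read depth is unknown, and no peak strength is comparable between lists beyond its rank.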
